A study of Homo sapiens with 12 samples.

Results

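The urokinase plasminogen activator system was followed in human tumour cells depleted of LARP4A or LARP4B, a pair of related RNA-binding proteins. It was represented by 5 of the 26468 gene symbols kept from the tables: the activators PLAU and PLAT, the receptor PLAUR, and the inhibitors SERPINE2 and SERPINB2. Each gene was taken by its symbol on the primary chromosomes, using the annotated transcript model with the most fragments over 12 libraries. PC3, a prostate adenocarcinoma line grown in RPMI, and MG63, an osteosarcoma line grown in alpha-MEM, were both labelled wild type. Each line received 10 nM of a non-targeting siRNA (siControl), an siRNA to LARP4A (siLARP4A) or an siRNA to LARP4B (siLARP4B), delivered with Lipofectamine RNAiMAX, and poly(A) RNA was prepared 72 h later. Each of the 6 groups held 2 libraries, which the series describes as biological replicates. The siRNA sequences are not given in the sources used here.

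PLAU encodes urokinase, a secreted serine protease that converts plasminogen to plasmin, and PLAT encodes tissue-type plasminogen activator, which does the same mainly on fibrin. PLAUR encodes the urokinase receptor, which is anchored to the cell surface and concentrates urokinase there. SERPINE2 (protease nexin 1) and SERPINB2 (plasminogen activator inhibitor 2) block these proteases, and SERPINE2 also blocks thrombin. In carcinoma and sarcoma cells the system is known for its part in matrix breakdown, migration and invasion.

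The RefSeq promoter table for GRCh38.p14 held windows for 4 of the 5 members, PLAT not among them. Windows run from 250 bases before to 50 bases after a start. The 3 windows whose start is that of the model counted here are shown, and their 3 genes all rose with siLARP4A in PC3. Capitals mark an AP-1 match (TGANTCA) or a TATA match (TATAAA). The windows lie at chr10:73910882-73911181 (PLAU, plus strand), chr19:43670120-43670419 (PLAUR, minus strand) and chr18:63887455-63887754 (SERPINB2, plus strand).
PLAU: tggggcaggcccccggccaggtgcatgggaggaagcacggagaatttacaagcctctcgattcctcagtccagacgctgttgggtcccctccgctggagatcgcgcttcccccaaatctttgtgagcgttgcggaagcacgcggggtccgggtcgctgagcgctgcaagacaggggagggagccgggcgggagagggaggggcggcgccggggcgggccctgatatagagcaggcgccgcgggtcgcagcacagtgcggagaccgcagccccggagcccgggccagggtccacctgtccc
PLAUR: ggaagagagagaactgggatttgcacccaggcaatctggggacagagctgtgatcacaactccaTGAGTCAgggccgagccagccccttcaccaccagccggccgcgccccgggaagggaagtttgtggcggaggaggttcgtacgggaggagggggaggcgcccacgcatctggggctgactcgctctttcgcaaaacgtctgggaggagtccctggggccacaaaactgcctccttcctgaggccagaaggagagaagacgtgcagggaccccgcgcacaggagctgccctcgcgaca
SERPINB2: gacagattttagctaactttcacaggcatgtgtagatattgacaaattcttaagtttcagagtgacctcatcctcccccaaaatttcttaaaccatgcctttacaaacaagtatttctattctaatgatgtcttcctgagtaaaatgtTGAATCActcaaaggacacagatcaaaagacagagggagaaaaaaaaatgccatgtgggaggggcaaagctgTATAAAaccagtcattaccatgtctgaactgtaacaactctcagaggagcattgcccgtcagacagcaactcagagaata
The PLAUR window held 1 AP-1 match, TGAGTCA, whose position was -186 from the start, and the SERPINB2 window held TGAATCA at -102 and TATAAA at -30. No letters of the PLAU window matched either motif or the ETS motif CCGGAAGT, all searched on both strands without overlaps between them. Of 35116 promoter windows of the same length, 7.71% held the AP-1 motif, 11.5% the TATA motif and 4.14% the ETS motif. GC content was 70.0% for PLAU, 64.0% for PLAUR and 39.0% for SERPINB2, against a median of 58.7% over all windows. Another PLAU window started 522 bases from the start of the model counted and is not shown. The SERPINE2 windows started 679 and 7841 bases from the start of the model counted and are not shown either.

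Library totals ran from 16950119 to 24864977 fragments. LARP4, the gene of LARP4A, fell with siLARP4A to 12.7% of siControl in PC3 and 25.8% in MG63, and LARP4B fell with siLARP4B to 18.4% and 30.9%. LARP4 rose with siLARP4B in MG63 by 0.43 on the log2 scale. PC3 libraries held the epithelial keratin genes KRT8, KRT18 and KRT19 at 203 to 401 FPKM (fragments scaled to model length and library total), while the prostate gene KLK3 stayed at or under 0.0442 FPKM. EPCAM and CDH1 of the same epithelial list were at 18.6 to 25.3 and 3.27 to 4.69 FPKM. MG63 libraries held COL1A1, COL1A2, SPARC and VIM at 379 to 2981 FPKM, but RUNX2, which defines osteoblasts, at 0.142 to 0.661 FPKM. PC3 also held VIM at 386 to 500 FPKM, with COL1A1, COL1A2 and SPARC at 2.24 to 10.0 and RUNX2 at 0.251 to 0.356. In MG63, KRT8 and KRT18 were at 25.7 to 40.2 FPKM, KRT19 at 0.891 to 2.11, and EPCAM and CDH1 at or under 0.0660. Of the 3 leukocyte markers listed, PTPRC was not among the symbols kept and could not be read. CD3E was at 0 in every library, and CD68 was at 11.8 to 20.6 FPKM in PC3 and 14.2 to 30.6 in MG63. The summed level of the 5 epithelial markers in PC3 was 852 to 868 FPKM with siControl, 993 to 1042 with siLARP4A and 796 to 822 with siLARP4B. In MG63 the leukocyte sum, which is CD68 alone, was 27.7 to 30.6 FPKM with siControl, 19.2 to 19.7 with siLARP4A and 14.2 to 14.4 with siLARP4B. The sum of 3 endothelial markers there, led by CDH5 with VWF at or under 0.0415, was 3.77 to 4.08 FPKM, 5.97 to 6.83 and 2.25 to 2.63 in the same order. The leukocyte sum in PC3 was 15.3 to 16.0 FPKM, 18.6 to 20.6 and 11.81 to 11.97. The part of these shifts in the results was not tested. The libraries are bulk RNA of cultured lines, so these sums are RNA levels of the listed genes and do not count leukocytes or endothelial cells. The share of cells that hold a marker and its RNA per cell cannot be told apart in bulk RNA.

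Both activators, the receptor and both inhibitors were transcribed in PC3, whereas MG63 held all but SERPINB2. With siLARP4A, 3 of the 5 members rose and 2 fell in PC3, where 19.5% of the 15685 tested genes were higher and 16.9% lower. In MG63, 3 of the 4 members with fragments rose with siLARP4A and 0 fell, where 13.3% of all genes were higher and 13.5% lower. With siLARP4B, 1 of 5 members rose and 1 fell in PC3, where 24.8% of all genes were higher and 20.9% lower. With siLARP4B in MG63, 1 of 4 rose and 1 fell, where 18.0% were higher and 16.9% lower. The median log2 fold change of the tested members was 0.22 and 0.49 with siLARP4A in PC3 and MG63, against 0.029 and -0.00061 over all genes. With siLARP4B it was 0.015 and -0.16, against 0.041 and -0.0027. A gene passed at an adjusted p of 0.05 in edgeR's quasi-likelihood test (Benjamini-Hochberg over all tested genes), which gives every adjusted p below. Between siLARP4A and siLARP4B, 4 of 5 members differed in PC3, where 54.1% of all genes did, and 3 of 4 in MG63, where 43.8% did. The 2 siRNAs share the siControl libraries of a line, so the contrasts against siControl are not independent.

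**Figure D1:**
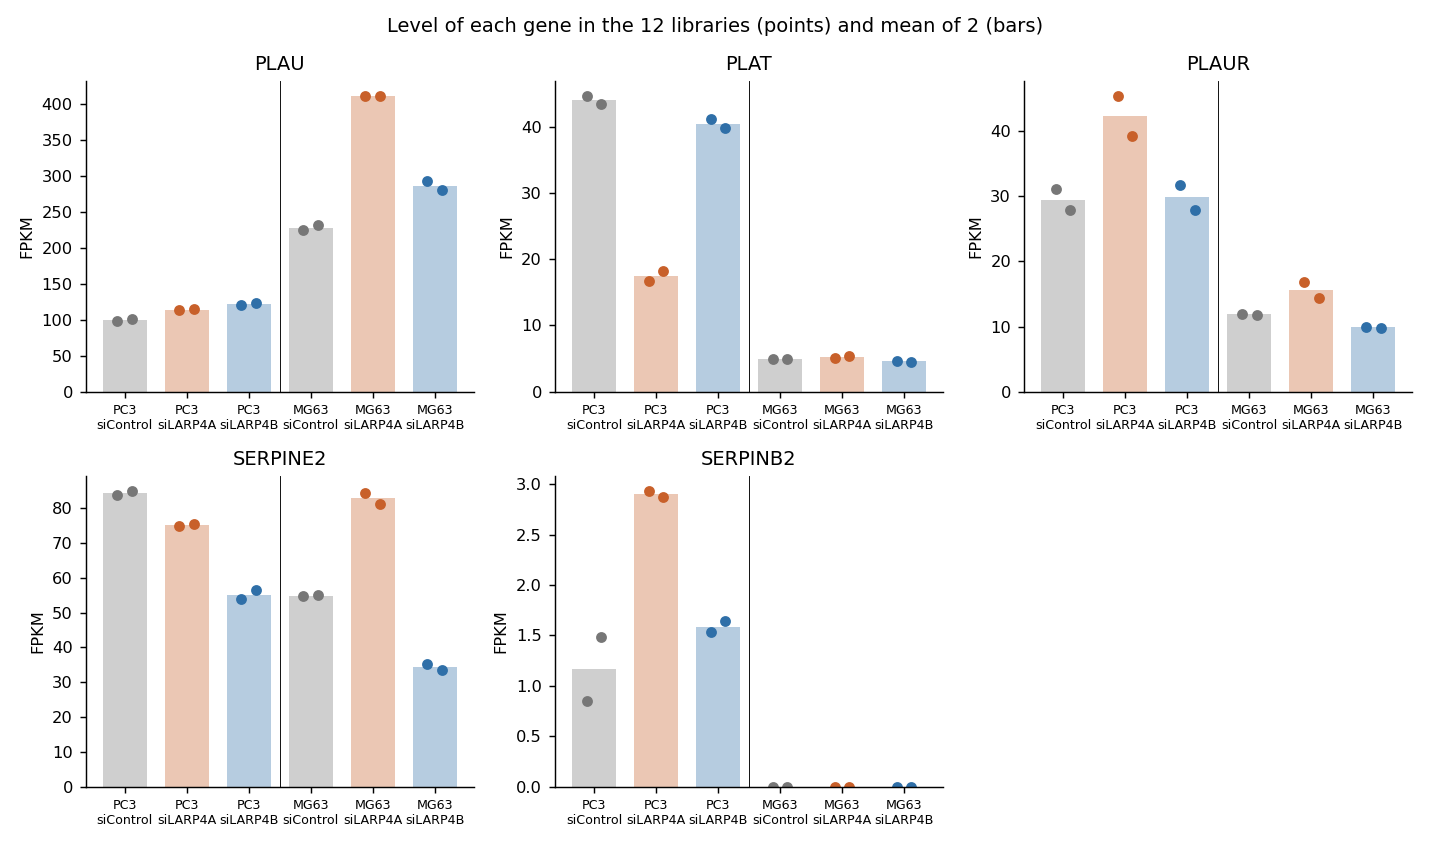
FPKM of the 5 members in each library (points) with the mean of 2 libraries (bars), for the 3 siRNA groups of PC3 (left of the line) and MG63 (right). PLAU was higher in all 6 MG63 libraries (224 to 411 FPKM) than in all 6 PC3 libraries (97.5 to 124), and SERPINB2 was at 0 in MG63.

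PLAU, the urokinase gene, lies on the plus strand of chromosome 10 (73911132 to 73917494, hg38), and 3 models share its exons. It rose with either siRNA in both lines, most with siLARP4A in MG63. In PC3 its level was 97.5 and 100.2 FPKM with siControl, 113.2 and 114.4 with siLARP4A, and 120.3 and 123.6 with siLARP4B. The MG63 values were 224 and 231 FPKM with siControl, 411 and 410.3 with siLARP4A, and 292 and 280.3 with siLARP4B. No group overlapped another, and the order of the 6 groups ran from MG63 siLARP4A, siLARP4B and siControl down to PC3 siLARP4B, siLARP4A and siControl. The log2 fold change in PC3 was 0.22 (SE 0.041, adjusted p 0.0002) with siLARP4A and 0.30 (SE 0.041, adjusted p 3.5e-06) with siLARP4B. The MG63 values were 0.85 (SE 0.040, adjusted p 1.7e-12), a 1.80-fold rise, with siLARP4A and 0.35 (SE 0.040, adjusted p 6.0e-07) with siLARP4B. The siRNAs themselves differed in MG63, where PLAU was 0.50 higher with siLARP4A on the log2 scale (adjusted p 1.3e-09). In PC3 their difference of -0.08 did not pass (95% interval -0.16 to 0.0069, adjusted p 0.11), and it passed at -0.10 in a test of log2 FPKM values and among genes of at least 5 FPKM. C10orf55, on the opposite strand across this locus, had 31413 fragments in the 12 libraries, 21.1% to 27.4% of the PLAU count of the same library. Whether the counting used strand is not stated, so the reads of PLAU and C10orf55 cannot be told apart.

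PLAT, the tissue-type activator gene, lies on the minus strand of chromosome 8 (42174718 to 42207565). It fell in PC3 with siLARP4A and passed the test in no other contrast against siControl. Its PC3 level was 44.7 and 43.4 FPKM with siControl, 16.7 and 18.3 with siLARP4A, and 41.2 and 39.8 with siLARP4B. Both siLARP4A libraries therefore lay well under the other 4 PC3 libraries. MG63 held far less: 4.91 and 4.86 FPKM with siControl, 5.01 and 5.42 with siLARP4A, and 4.68 and 4.52 with siLARP4B. The 6 MG63 libraries thus stayed within 1 FPKM of each other. The log2 fold change with siLARP4A in PC3 was -1.32 (SE 0.059, adjusted p 2.9e-13), which left 40.1% of the siControl level and was the 210th lowest of the 15685 changes. With siLARP4B in PC3 it was -0.13 (95% interval -0.24 to -0.0087, adjusted p 0.075). In MG63 it was 0.10 (95% interval -0.088 to 0.28) with siLARP4A and -0.07 (95% interval -0.25 to 0.12) with siLARP4B. Measured directly between the siRNAs in PC3, PLAT was lower with siLARP4A by -1.19 on the log2 scale (adjusted p 3.0e-13). The value for siLARP4B in PC3 passed in 4 of the alternatives, with a largest change of -0.17.

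PLAUR, the urokinase receptor gene, lies on the minus strand of chromosome 19 (43648579 to 43670169). It rose with siLARP4A in both lines and did not pass with siLARP4B in either. In PC3 its level was 31.1 and 27.9 FPKM with siControl, 45.5 and 39.2 with siLARP4A, and 31.7 and 27.9 with siLARP4B. The siControl and siLARP4B libraries overlapped there, and both siLARP4A libraries lay above them. The MG63 libraries held 11.999 and 11.792 FPKM with siControl, 16.8 and 14.4 with siLARP4A, and 9.96 and 9.77 with siLARP4B, with no overlap. The log2 fold change with siLARP4A was 0.54 (SE 0.085, adjusted p 2.7e-05) in PC3 and 0.39 (SE 0.11, adjusted p 0.0098) in MG63. For siLARP4B the values were 0.015 (95% interval -0.17 to 0.20, adjusted p 0.92) in PC3 and -0.25 (95% interval -0.49 to -0.012, adjusted p 0.098) in MG63. The MG63 value passed when a replicate block was added to the edgeR fit (-0.25, adjusted p 0.042). PLAUR was higher with siLARP4A than with siLARP4B by 0.53 in PC3 (adjusted p 1.6e-05) and 0.64 in MG63 (adjusted p 6.2e-05). The call with siLARP4A in MG63 was lost without MG63 siControl replicate 2 (0.38, adjusted p 0.063) or without MG63 siLARP4A replicate 1 (0.28, adjusted p 0.14).

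SERPINE2, the protease nexin 1 gene, lies on the minus strand of chromosome 2 (223975048 to 224039319). It fell with siLARP4B in both lines, while with siLARP4A it rose in MG63 and fell slightly in PC3. In PC3 its level was 83.7 and 84.9 FPKM with siControl, 74.8 and 75.3 with siLARP4A, and 53.9 and 56.3 with siLARP4B. The MG63 values were 54.8 and 54.9 FPKM with siControl, 84.3 and 81.2 with siLARP4A, and 35.2 and 33.6 with siLARP4B. Groups of the same line did not overlap. Between the lines, the range of MG63 siLARP4A overlapped that of PC3 siControl, and the PC3 siLARP4B libraries lay on either side of the MG63 siControl libraries. The log2 fold change with siLARP4B was -0.62 (SE 0.048, adjusted p 8.5e-10) in PC3 and -0.65 (SE 0.051, adjusted p 2.0e-09) in MG63. With siLARP4A it was 0.59 (SE 0.048, adjusted p 6.4e-09) in MG63 and -0.15 (SE 0.047, adjusted p 0.016) in PC3. The last of these did not pass without PC3 siControl replicate 1 or replicate 2 (-0.15 each, adjusted p 0.071 and 0.069). Between the siRNAs, SERPINE2 was higher with siLARP4A by 0.47 in PC3 (adjusted p 3.5e-08) and by 1.25 in MG63 (adjusted p 4.2e-14), a 2.37-fold difference.

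SERPINB2, the plasminogen activator inhibitor 2 gene, lies on the plus strand of chromosome 18 (63887705 to 63903888) and was the least abundant member. All 6 MG63 libraries had 0 fragments, which allows up to 3 fragments or 0.0803 to 0.0901 FPKM per library. This limit covers counting error only. In PC3 it had 29 and 54 fragments with siControl, 139 and 104 with siLARP4A, and 56 and 53 with siLARP4B. Those counts correspond to 0.847 and 1.49 FPKM, 2.93 and 2.88 FPKM, and 1.53 and 1.64 FPKM. Both siLARP4A libraries were highest, and the siControl libraries were the least alike. The log2 fold change with siLARP4A was 1.32 (SE 0.23, adjusted p 0.00013), a 2.50-fold rise, and between siLARP4A and siLARP4B it was 0.90 (SE 0.22, adjusted p 0.0016). The latter was 0.90 in DESeq2 with an adjusted p of 0.058. With siLARP4B it was 0.43 (95% interval -0.11 to 0.97, adjusted p 0.19). That value was 0.88 (adjusted p 0.033) without PC3 siControl replicate 2 and 0.092 without PC3 siControl replicate 1.

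**Figure D2:**
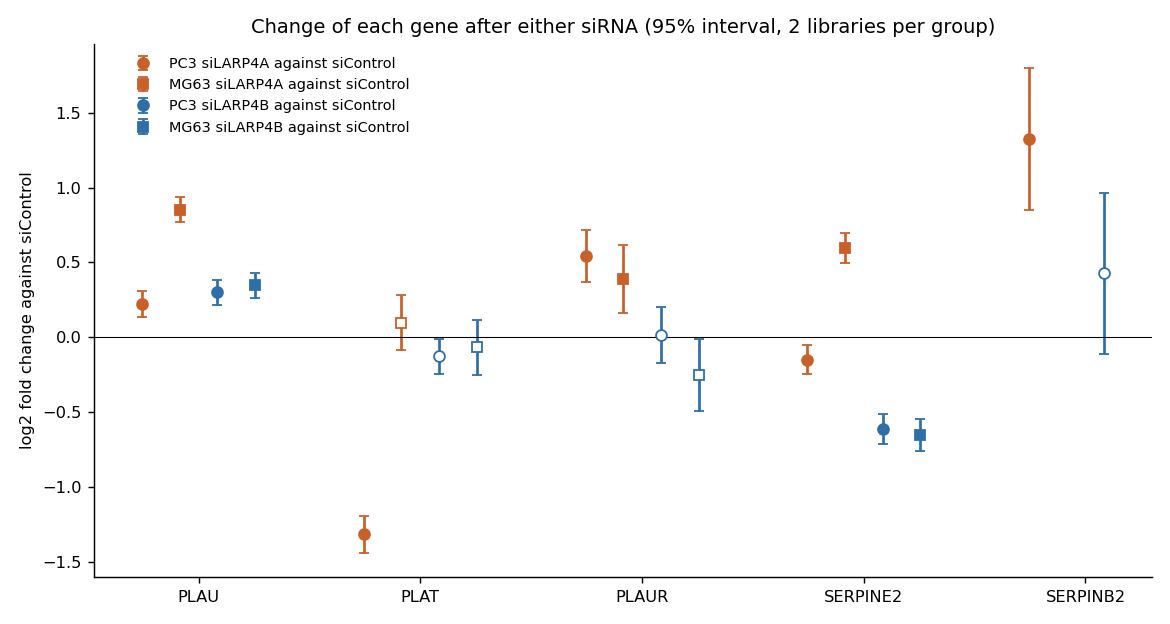
Log2 fold change of each member against siControl of the same line, with its 95% interval, for PC3 (circles) and MG63 (squares), siLARP4A (orange) and siLARP4B (blue), from 2 libraries per group. Filled symbols passed at an adjusted p of 0.05 and open ones did not. SERPINB2 has no MG63 value, and PLAT with siLARP4A in PC3 is the lowest point at -1.32.

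The effect of siLARP4A differed between the lines for 3 of the 4 members measured in both, where 11.2% of all genes passed this test. The difference, PC3 minus MG63, was -0.63 for PLAU (SE 0.057, adjusted p 2.6e-07), -1.41 for PLAT (SE 0.11, adjusted p 1.4e-08) and -0.74 for SERPINE2 (SE 0.068, adjusted p 2.6e-07). PLAU thus rose in both lines but more in MG63, and SERPINE2 moved in opposite directions. For PLAUR the difference was 0.15 (95% interval -0.13 to 0.44, adjusted p 0.55). The effect of siLARP4B differed between lines for 0 of the 4 members (0 also at an unadjusted p of 0.05), where 26.8% of all genes passed. The intervals of that difference were -0.17 to 0.070 for PLAU, -0.28 to 0.16 for PLAT, -0.035 to 0.57 for PLAUR and -0.11 to 0.18 for SERPINE2. LARP4 was itself depleted less in MG63 than in PC3, and its part in the differences was not tested.

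Because FPKM is per length, levels can be set side by side between genes. As counted, with any reads of C10orf55 included, PLAU had the highest FPKM of the members in all 12 libraries, with 38.3% of the summed FPKM of the 5 genes in PC3 siControl and 76.1% in MG63 siControl. The ratio of PLAU to SERPINE2, an activator to one of its inhibitors, was 1.17 and 1.18 in the PC3 siControl libraries, 1.51 and 1.52 with siLARP4A, and 2.23 and 2.19 with siLARP4B. In MG63 the same ratio was 4.09 and 4.22 with siControl, 4.88 and 5.05 with siLARP4A, and 8.30 and 8.34 with siLARP4B. In both lines the siLARP4B libraries had the highest ratio and the siControl libraries the lowest, without overlap. The ratio of PLAU to PLAT in PC3 was 2.18 and 2.31 with siControl, 6.77 and 6.26 with siLARP4A, and 2.92 and 3.11 with siLARP4B. With the fragments counted for C10orf55 taken off PLAU, a setting added after the values were seen, PLAU to SERPINE2 was 0.919 and 0.875 in PC3 siControl, so SERPINE2 was then the higher there. In the other 5 groups that ratio stayed above 1, at 1.10 to 6.24, and the order of the groups within each line was kept. These ratios are of RNA levels and restate the fold changes above, so they carry no test of their own.

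**Figure D3:**
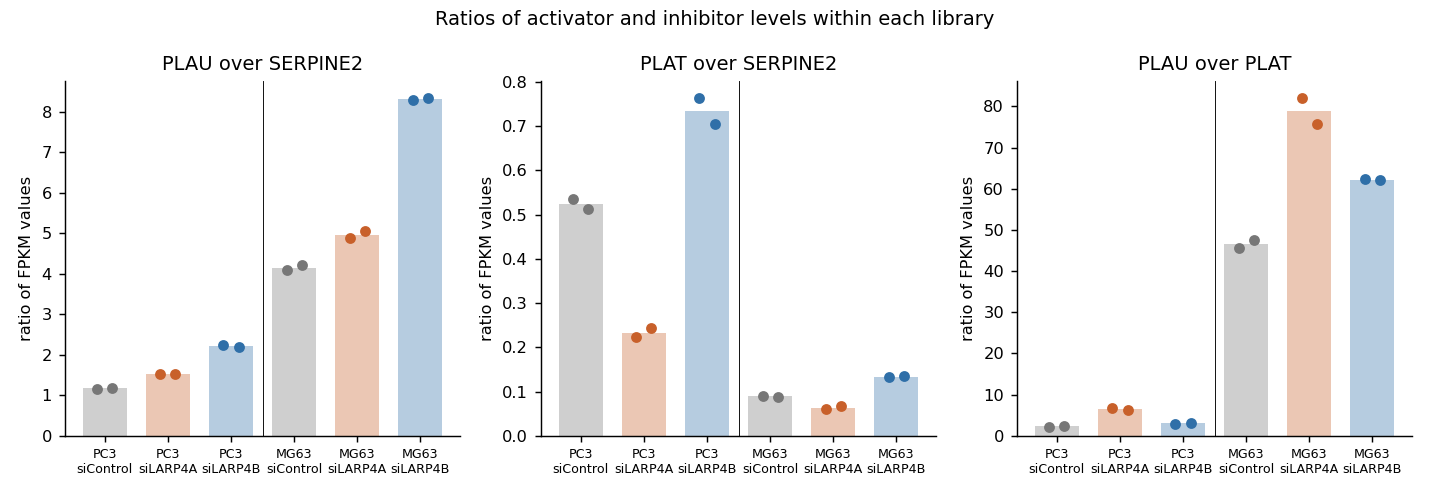
Ratios of FPKM values within each library (points) and their mean over 2 libraries (bars) for PLAU over SERPINE2, PLAT over SERPINE2 and PLAU over PLAT in the 6 groups. PLAU over SERPINE2 was highest with siLARP4B in each line, at a mean of 2.21 in PC3 and 8.32 in MG63, and PLAT over SERPINE2 was lowest with siLARP4A, at 0.233 and 0.0631.

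Around the members, 51 genes of the pathway were gathered in 7 lists, and 38 of them passed the expression filter. With siLARP4A, 15 rose and 9 fell in PC3 (19.5% and 16.9% of all tested genes), and 17 rose and 2 fell in MG63 (13.3% and 13.5% of all). With siLARP4B, 11 rose and 14 fell in PC3 (24.8% and 20.9% of all), and 4 rose and 13 fell in MG63 (18.0% and 16.9% of all). PLG, the gene of plasminogen itself, had at most 5 fragments in a PC3 library and 0 in every MG63 library, so RNA of the substrate of both activators was at or near 0 in these libraries.

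Among the other inhibitors, SERPINI1, the neuroserpin gene, rose with siLARP4B in PC3 (0.92, adjusted p 3.3e-05) and fell with siLARP4A in MG63 (-0.84, adjusted p 1.0e-06).

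Among 4 tested plasminogen binders, ANXA2, the annexin A2 gene, fell with siLARP4B by -0.87 in PC3 and -0.86 in MG63, while ENO1 fell by -0.51 in PC3 and was at -0.01 in MG63 (difference between lines -0.50, adjusted p 4.3e-06). The value of ENO1 in PC3 was -0.28 and did not pass (adjusted p 0.12) when 1 deduplicated siControl table was used. That setting sets it beside libraries that were not deduplicated, so it compares unlike counts. Both genes have near-identical processed copies, so their counts are uncertain. LRP1, 1 of 7 tested clearance receptors and chaperones, takes up protease and inhibitor complexes. It rose with siLARP4B in PC3 (0.67, adjusted p 4.5e-07) and was at -0.03 in MG63. IGF2R, a receptor that binds PLAUR, rose with siLARP4A in both lines (0.64 and 0.59). LRP8 rose with siLARP4A in PC3 (0.55). VLDLR fell with siLARP4B in PC3 (-0.97). SORL1 rose with siLARP4A in MG63 (0.82) and fell in PC3 (-0.30), with a difference between lines of -1.13 (adjusted p 1.8e-05). Its level in MG63 was low, at a mean of 0.571 FPKM with siControl and 1.01 with siLARP4A, against 5.98 in PC3 siControl.

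Of 6 tested ligands and partners of the receptor, ITGA5 rose with siLARP4A by 0.64 in PC3 and 0.48 in MG63. With siLARP4B it rose by 0.13 and 0.44. ITGAV with siLARP4A fell in PC3 (-0.29) and rose in MG63 (0.37), with a difference between lines of -0.66 (adjusted p 7.7e-05). With siLARP4B, ITGAV fell more in PC3 (-0.69, adjusted p 1.2e-07) and was at -0.03 in MG63. That difference between lines was also -0.66 (adjusted p 3.0e-05). ITGB3, the partner subunit of ITGAV, rose with siLARP4A in MG63 (0.97). Of 4 tested proteases that activate pro-urokinase, CTSL rose in PC3 with siLARP4A (0.61) and siLARP4B (0.29). THBD, the thrombomodulin gene of the thrombin list, rose in PC3 with siLARP4A (1.23, adjusted p 1.3e-05) and fell with siLARP4B (-1.14, adjusted p 0.00078). Its levels there were low, at a mean of 0.767 FPKM with siControl, 1.79 with siLARP4A and 0.345 with siLARP4B. F2RL1, a protease-activated receptor, fell in PC3 with siLARP4A (-0.38) and siLARP4B (-0.51).

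Of 11 regulators, 5 rose and 2 fell with siLARP4A in PC3 (19.5% and 16.9% of all tested genes), and 4 rose and 0 fell in MG63 (13.3% and 13.5%). With siLARP4B 2 rose and 5 fell in each line (24.8% and 20.9% of all genes in PC3, 18.0% and 16.9% in MG63). ETS1, a transcription factor of the ETS family, rose with siLARP4A (0.47 in PC3 and 0.25 in MG63) and fell with siLARP4B (-0.71 and -0.62). Among AP-1 subunits, FOSL1 fell with siLARP4B in both lines (-0.54 in PC3 and -0.26 in MG63). JUN rose with siLARP4A in PC3 (0.50), and JUNB rose with siLARP4A in MG63 (0.71). With siLARP4B both fell in MG63, JUN by -0.21 (adjusted p 0.0019) and JUNB by -0.40 (adjusted p 0.00017). Neither passed with siLARP4B in PC3 (-0.09 and 0.06). ZFP36, which binds AU-rich elements and promotes mRNA decay, rose with siLARP4A in both lines (0.81 and 0.65) and with siLARP4B in PC3 (0.63).

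**Figure D4:**
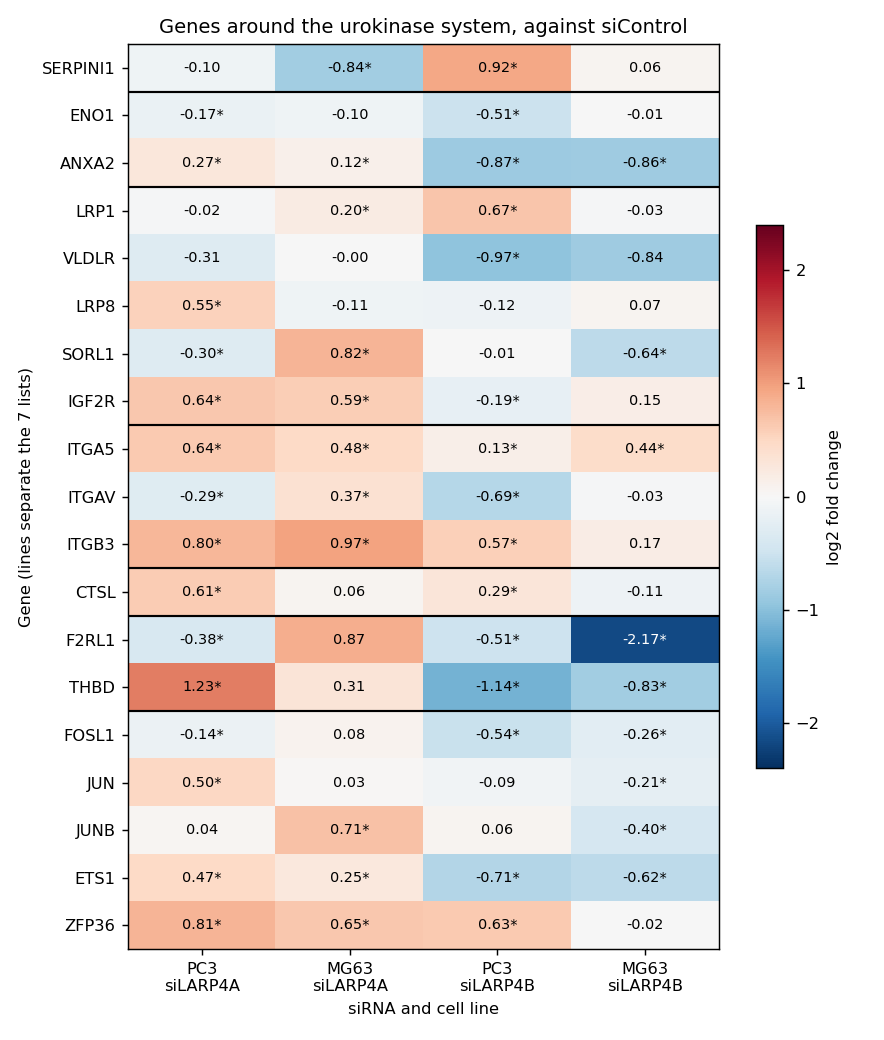
Log2 fold change against siControl of 19 tested pathway genes that met the naming rule, in 4 contrasts, with an asterisk where the adjusted p was under 0.05. ETS1 was higher with siLARP4A and lower with siLARP4B in both lines, and F2RL1 in MG63 rests on under 0.4 FPKM. Group means were also low for VLDLR in MG63 (0.096 to 0.176 FPKM) and ITGB3 in PC3 (0.268 to 0.454). SORL1 in MG63 had means of 0.361 to 1.01 FPKM, and THBD was at 0.277 to 1.82 over the libraries. ENO1 with siLARP4A in PC3 turned to 0.075 with the deduplicated siControl table, which was set beside libraries that were not deduplicated.

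Of the calls with an asterisk, 12 were lost under 1 or more alternatives: ENO1, ITGB3 and FOSL1 with siLARP4A in PC3, ENO1, IGF2R, ITGA5 and ITGB3 with siLARP4B in PC3, ANXA2 and LRP1 with siLARP4A in MG63, and SORL1, F2RL1 and THBD with siLARP4B in MG63.

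Genes with the most alike pattern were ranked by Pearson r of log2 CPM over the 12 libraries after the mean of each line was subtracted, among 9854 candidates. These points share libraries and siControl groups, so r is a description. PLAU was most alike to PKD1 (r 0.975), STK38 and PRAG1. PLAT was most alike to ADGRF1 (r 0.972), S100P and ALDH1A3. ADGRF1 and S100P had a log2 fold change of 0 in both MG63 contrasts against siControl, so their pattern comes from PC3. The receptor gene PLAUR was most alike to C15orf39 (r 0.979), TOR2A and MMP14, the last of which encodes a membrane-anchored matrix metalloproteinase. MMP14 rose with siLARP4A by 0.78 in PC3 and 0.68 in MG63. SERPINE2 was most alike to EPHA2 (r 0.989), GALNT10 and OSBPL10. SERPINB2 was most alike to CENPVL3 (r 0.987), MLLT11 and ZEB2. CENPVL3 also had a log2 fold change of 0 in both MG63 contrasts against siControl. Among the members, the highest r of the same kind was 0.68, between PLAUR and SERPINE2, and the lowest was -0.90, between PLAT and SERPINB2, which had fragments in PC3 alone.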

How the data were processed

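RNA-seq of 12 libraries was analysed from 1 deposited table each. Per the submitters' processing notes, FastQC, HISAT2, featureCounts and edgeR were used with hg38; strand handling and annotation are not given in the sources used here. Per the file headers, the authors deposited a fragment count, an FPM score (count scaled to a library total) and an FPKM value for each of 86394 transcript models. A fragment in an exon shared by models is counted in each, so FPM scores sum to more than single counting of each fragment allows. The model with most fragments stood for each of 26468 symbols, and 1810 symbols at several loci were left out. Differences in counts were assessed in R 4.3.3 by edgeR 4.0.16 (quasi-likelihood F-test, TMM, default expression filter, 1 fit of 6 group means, two-sided, 15685 genes, threshold 0.05). The test was also run on simulated counts with the same spread for all genes and the same base level in both lines. That setting cannot check spread that differs between genes. The biological coefficient of variation was 4.22% and the prior degrees of freedom 15.4, so with 2 libraries per group the spread is largely borrowed from other genes. Alternatives were DESeq2 1.42.0 and its scaling, other filters, models, a replicate block, 1 line alone, limma 3.58.1 on log2(FPKM + 1), 1 deduplicated table, and leaving out each library. The deduplicated table, that of PC3 siControl replicate 2, was set beside others not deduplicated. Members and lists were chosen with earlier results of these data known. Pathway genes were named where they passed with an absolute log2 fold change of at least 0.5 and a mean of at least 1 FPKM in either group; PLG and LRP1 were always named. Some genes of the lists are not reported here. For alike genes the 3 highest r were taken among genes of at least 5 FPKM in a group. C10orf55 was named after its values were seen.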

Additional observations from a re-analysis of the deposited data

Results flagged for a closer look

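The effect of siLARP4A differed between PC3 and MG63 for 3 members by the interaction term of the edgeR fit. The log2 difference, PC3 minus MG63, was -0.63 for PLAU, where both lines rose. It was -1.41 for PLAT, whose 2 siLARP4A libraries in PC3 lay under all other PC3 libraries while the MG63 libraries stayed between 4.52 and 5.42 FPKM. It was -0.74 for SERPINE2, which fell in PC3 and rose in MG63.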

How the results depend on the processing

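Over 21 alternative settings and 35 results, 459 comparisons with the reported value were made. Of these 446 kept their direction where called and their side of the threshold, 5 lost a call, 8 gained one and 0 changed sign where called. Lost calls were SERPINE2 with siLARP4A in PC3 and PLAUR with siLARP4A in MG63 without single libraries, and SERPINB2 between siLARP4A and siLARP4B in DESeq2 (0.90, adjusted p 0.058). Leaving out single libraries gave SERPINE2 with siLARP4A in PC3 -0.15 to -0.15, PLAUR with siLARP4A in MG63 0.28 to 0.51, and SERPINB2 in PC3 0.99 to 1.78 with siLARP4A and 0.092 to 0.88 with siLARP4B. PLAT with siLARP4B in PC3 passed with DESeq2's scaling (-0.14, adjusted p 0.040), no low count filter (-0.17, 0.024), PC3 alone (-0.17, 0.030) and the deduplicated siControl table (-0.17, 0.018). PLAU between siLARP4A and siLARP4B in PC3 passed among genes of at least 5 FPKM (-0.10, adjusted p 0.025) and in limma (-0.10, 0.035). The cause of these changes was not tested. The labels do not say that replicate numbers pair the samples. Deviations of same-numbered libraries correlated at -0.026 to 0.050, which shows no large shared shift but cannot settle whether they were prepared together. With the replicate block PLAUR with siLARP4B in MG63 passed (-0.25, adjusted p 0.042), and no other member's call changed. The number of genes called with siLARP4A in MG63 was 4206, and 2702, 2698 and 2704 without siControl replicate 1, siControl replicate 2 or siLARP4A replicate 1. For the difference between lines with siLARP4A it was 1759, and 1050 to 1136 without PC3 siControl replicate 1, either MG63 siControl replicate or MG63 siLARP4A replicate 2. No scaling moved the median of all genes by over 0.1. SERPINB2 had no value among genes of at least 5 FPKM, and its low counts limit its precision.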

Other observations

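The longest PLAUR model differs from the model counted at both ends. Its fragments were 76.7% and 78.1% of those of the counted model in PC3 siControl, 78.8% and 77.1% with siLARP4A, and 90.6% and 84.7% with siLARP4B. In MG63 they were 73.1% and 74.4% with siControl, 75.4% and 78.4% with siLARP4A, and 78.7% and 68.3% with siLARP4B. Both PC3 siLARP4B libraries lay above the other 4 PC3 libraries, while the MG63 siLARP4B libraries spanned the siControl range. The models share exons, and no test was run on these shares.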
